A study of Mus musculus with 4 samples.

Results

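Lgr5-positive basal cells are mammary epithelial cells that carry the contractile genes and keratins of the basal layer together with at least 1 transcript of Lgr5. They were taken from 4 single-cell RNA libraries of mouse mammary epithelium, among barcodes with at least 1000 unique molecular identifiers (UMIs, each standing for 1 captured transcript), at least 500 genes and at most 15% mitochondrial UMIs. Per 10000 UMIs, a basal cell had to hold at least 20 of Acta2, Myh11, Mylk and Tagln together, at least 10 of Krt5 and Krt14 together, and fewer than 10 of the luminal genes Esr1, Prlr, Areg and Foxa1 together. Of 30062 barcodes 25950 passed the quality limits, 11806 of these were basal, and 4780 of the basal cells held an Lgr5 UMI. The other 7026 basal cells are called Lgr5-negative, although a cell with no captured transcript may still express the gene.

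Each library came from mammary tissue of mice 6 months of age, which received estradiol and progesterone as implanted pellets and then giredestrant or vehicle daily for 4 days. The 4 groups, with 1 library each, were Esr1 Y541S with giredestrant (991 Lgr5-positive basal cells), Esr1 Y541S with vehicle (903), Esr1 wild type (WT) with giredestrant (481) and Esr1 wild type with vehicle (2405). Giredestrant was dosed by mouth at 30 mg/kg and blocks the estrogen receptor and promotes its degradation, and Y541S is a substitution in the mouse receptor that matches a hormone-independent mutation of human breast cancer. Cells positive for the epithelial surface protein EpCAM were sorted before sequencing, and 1 label names mature luminal cells, whereas basal cells made up a large part of every library. The labels used here do not say how many animals entered a library.

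Basal cells line the outside of the mammary ducts, contract on oxytocin to eject milk, and lay down much of the basement membrane. LGR5 is a surface receptor for R-spondins, secreted proteins that strengthen Wnt signalling at the membrane. It is best known as a marker of intestinal crypt stem cells, and in the mouse mammary gland it marks a subset of basal cells that has been studied for stem cell activity.

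Lgr5 transcripts lay mostly within the basal gate. Of all Lgr5 UMIs in kept barcodes, 80.4% in the Y541S giredestrant library, 85.3% in the Y541S vehicle library, 85.3% in the WT giredestrant library and 86.3% in the WT vehicle library belonged to basal cells. Of the kept barcodes with Lgr5 that missed the gate, 225, 156, 102 and 351 in the same order of libraries had too few contractile or keratin UMIs, and only 21, 19, 5 and 10 had too many luminal ones. At the edges of the gate, 129, 64, 69 and 200 of the Lgr5-positive cells held 20 to 40 contractile UMIs per 10000, and 15, 6, 2 and 9 held 5 to 10 luminal ones. Of the markers named for these cells, Krt14, a basal keratin that the gate used, was found in 100% of the depth-matched Lgr5-positive cells of each library, whereas Oxtr, the oxytocin receptor, was found in 34.6% of them in the Y541S giredestrant library, 64.9% in the Y541S vehicle library, 87.5% in the WT giredestrant library and 59.0% in the WT vehicle library. Oxtr was also found in 31.1%, 57.6%, 83.2% and 45.7% of the matched Lgr5-negative cells, so it was common in both states.

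Within the Lgr5-positive cells, the number of Lgr5 UMIs was low in most and high in a few. A single UMI was all that 46.0% of them held in the Y541S giredestrant library, 41.4% in the Y541S vehicle library, 33.1% in the WT giredestrant library and 36.7% in the WT vehicle library. At the other end 76, 77, 48 and 264 cells held 10 or more, and the highest cells held 99, 82, 78 and 157. The rule therefore draws its line between 456, 374, 159 and 883 cells with 1 UMI on the inside and 2446, 1920, 461 and 2199 cells with none on the outside. The libraries differed in depth, with a median of 5662, 12187, 18558 and 10422 UMIs in their basal cells, and a deeper cell is more likely to show a rare transcript. Between 7 and 23 kept barcodes were shared by each pair of libraries, and 1 barcode was Lgr5-positive in 2 of them.

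The share of basal cells with Lgr5 was therefore compared after every cell had been thinned to 5000 UMIs and shallower cells had been left out. It was 25.9% in the Y541S giredestrant library (95% Clopper-Pearson interval 24.0 to 27.9, 1451 of 3437 basal cells left out as too shallow), against 21.8% in the Y541S vehicle library (20.2 to 23.4, 94 left out). In WT glands it was 31.2% with giredestrant (28.2 to 34.3, 26 left out), against 38.7% with vehicle (37.3 to 40.2, 266 left out). Averaged over all possible draws the shares were 26.9%, 21.4%, 30.5% and 37.8% in the same order of libraries. The intervals within each genotype did not overlap, and the difference ran in opposite directions: giredestrant was higher than vehicle by 4.11 percentage points in Y541S glands and 7.48 points lower in WT glands. With 1 library per group this has no replicate check, and the intervals cover counting error only.

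Without thinning the shares were 28.8%, 32.0%, 51.1% and 52.2% in the same order, which puts giredestrant below vehicle in the Y541S pair. The summed Lgr5 level of all basal cells, which does not move with depth in this way, was 155 CPM (UMIs of the gene in the summed cells, scaled to one common total) in the Y541S giredestrant library against 104 CPM in the Y541S vehicle library, and 120 CPM in the WT giredestrant library against 218 CPM in the WT vehicle library. The 2 giredestrant libraries cannot be ordered, because Y541S was lower than WT by share and higher by CPM. The background was small: at 5000 UMIs Lgr5 was found in 0.55%, 0.19%, 0.35% and 0.16% of hormone-sensing luminal cells, and in 0.72%, 0.43%, 0 and 0 of secretory luminal cells. The 2 zeros, among 543 and 559 cells, allow shares of up to 0.55% and 0.54% of cells with a UMI. Median depths of the cells thinned were 8071, 12365, 18904 and 10756 UMIs in basal cells, 11175, 25940, 31379 and 29182 in hormone-sensing cells and 9521, 15328, 20768 and 14303 in secretory cells.

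**Figure D1:**
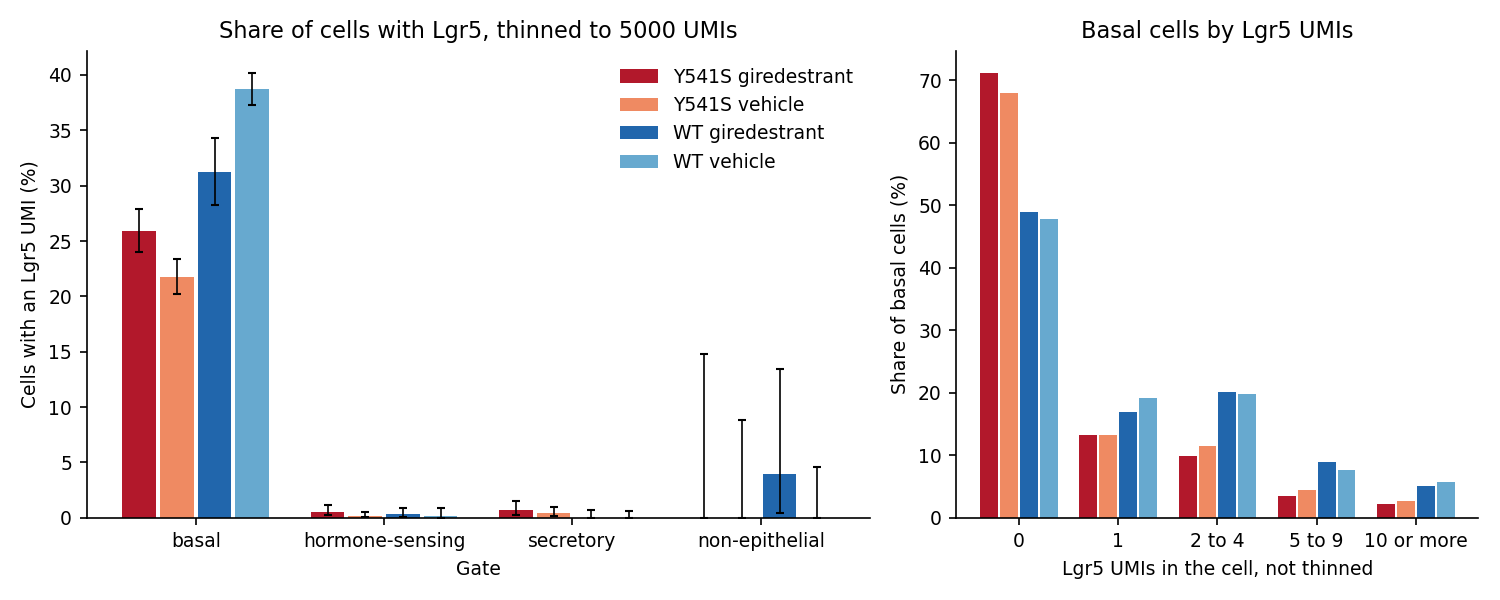
Left, share of cells with an Lgr5 UMI after thinning to 5000 UMIs (y axis, %) in 4 gates (x axis), with bars for the 4 libraries and 95% Clopper-Pearson intervals; basal cells stand at 21.8% to 38.7% and both luminal gates below 1%, while the non-epithelial gate holds few cells and has wide intervals. Right, share of basal cells (y axis, %) by number of Lgr5 UMIs before thinning (x axis), with 0 the largest class in every library and a tail at 10 or more.

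To learn what else sets these cells apart, Lgr5-positive cells were each paired with 1 Lgr5-negative basal cell of the same library whose total UMIs lay within 10%. Positive cells with no such partner left were dropped. In the Y541S libraries this gave 991 pairs from 991 positive cells with giredestrant and 902 from 903 with vehicle. In the WT libraries it gave 400 from 481 with giredestrant and 2137 from 2405 with vehicle. Counts were summed per library and state. Median depth then agreed closely in the Y541S libraries and was 19117 against 18732 UMIs and 10819 against 9827 UMIs in the WT ones. Over all positive cells the median was 17236 UMIs in the WT giredestrant library and 11204 UMIs in the WT vehicle library. In edgeR's quasi-likelihood test with the library as a block (n = 4 pairs of sums), 1101 of 14640 genes (7.52%) passed a Benjamini-Hochberg adjusted p of 0.05, 509 of them higher (3.48%) and 592 lower (4.04%) in Lgr5-positive cells. The balance turns with the scaling, since without TMM factors 631 were higher and 471 lower. Of the 1101 genes, 1054 had the same sign in all 4 libraries. Lgr5 itself and the other 10 genes of the rule were left out of these counts. The 4 libraries serve here as replicates of 1 contrast although they differ in genotype and drug, and p-values measure the spread between them.

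The genes that were higher in Lgr5-positive cells include a Wnt inhibitor, a tetraspanin and a protease inhibitor. Sfrp1, a secreted antagonist of Wnt ligands, stood at 16.8, 23.1, 14 and 53.9 CPM in Lgr5-positive cells of the Y541S giredestrant, Y541S vehicle, WT giredestrant and WT vehicle libraries, against 4.81, 7.79, 3.72 and 27.7 CPM in their Lgr5-negative partners. All 4 pairs differed in the same direction, and the fitted log2 ratio was 1.28 (SE 0.132, adjusted p = 0.00021). Tspan8, a tetraspanin that has been used with Lgr5 to mark a quiescent subset of mouse mammary basal cells, stood at 14.7, 23.7, 15.3 and 72.8 CPM against 2.67, 6.11, 4.97 and 41.3 CPM (log2 ratio 1.25, SE 0.179, adjusted p = 0.00157). It was found in 5.95%, 8.54%, 11.5% and 25.1% of Lgr5-positive cells, against 1.82%, 3.22%, 5.50% and 13.9% of Lgr5-negative ones. Lgr5 and Tspan8 therefore co-occurred more often than in the matched cells, but most Lgr5-positive cells of every library had no Tspan8 UMI. Of 16 stem and basal subset genes tested, 3 rose and 2 fell, against 3.48% and 4.04% of all genes, with a list median of -0.0088. Tspan8, Sox9 and Sox10 were the higher ones and Aldh1a1 and Nrg1 the lower ones. Sox9 and Sox10 lost their calls without the WT vehicle or the Y541S vehicle library.

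Slpi, a secreted inhibitor of serine proteases, stood at 206, 2488, 922 and 3507 CPM in Lgr5-positive cells, against 78.2, 935, 443 and 2449 CPM in Lgr5-negative cells of the same libraries (log2 ratio 1.05, SE 0.115, adjusted p = 0.000304). Its level differed more between libraries than between the 2 states, and the positive cells were higher in each pair. Frmpd4, a scaffold protein described at synapses, stood at 6.27, 50.1, 26.3 and 168 CPM against 2.41, 9.12, 5.21 and 73.2 CPM (log2 ratio 1.60, SE 0.172, adjusted p = 0.000284). Xkr4, a member of the XK family of membrane proteins on chromosome 1 (GRCm38, 3205901 to 3671498, minus strand), stood at 56.3, 96.5, 194 and 196 CPM against 17.0, 37.8, 80.1 and 99.3 CPM (log2 ratio 1.23, SE 0.083, adjusted p = 2.25e-05). Predicted genes lie inside the Xkr4 span, so its reads may be split between entries.

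The remaining genes of the top 12 were scarce. Ldb2, a LIM-domain binding cofactor, had a log2 ratio of 1.38, Pcdh11x, a protocadherin, 1.08, Lrrtm1, a synaptic adhesion protein, 1.02, and Gli2, a transcription factor of the Hedgehog pathway, 0.99, all from levels below 8 CPM in both states of every library. Ypel4 at 1.20 and 1700007G11Rik at 1.26 were likewise below 4 CPM. Gli2, Pcdh11x, Ypel4 and 1700007G11Rik passed the test no longer without the Y541S vehicle library. Gli2, Pcdh11x and Ypel4 also failed without the WT giredestrant library, and Gli2 and Pcdh11x without the WT vehicle library. The gene with the highest ratio of all, A930009A15Rik, at 6.67, 3.59, 1.57 and 4.50 CPM against 0.40, 0.17, 0.12 and 0.17 CPM, is no independent finding. It lies on the plus strand of chromosome 10 from 115569986 to 115582448, inside Lgr5 on the minus strand from 115450311 to 115587780, and reads of the 2 genes may not be told apart.

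**Figure D2:**
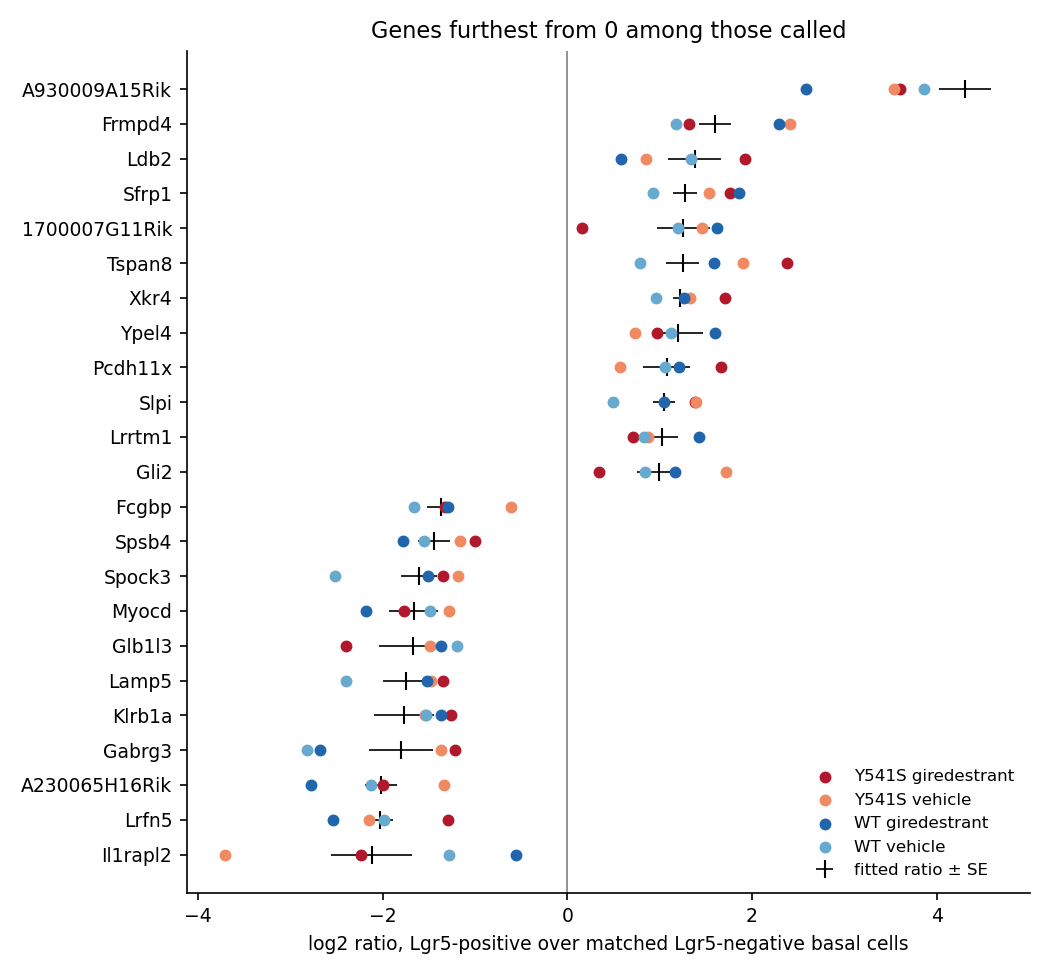
Log2 ratio of Lgr5-positive over depth-matched Lgr5-negative basal cells (x axis) for genes among the 12 highest and the 12 lowest of those called with the same sign in all 4 libraries (y axis). Each coloured point is 1 library, computed with a prior count of 2 that draws scarce genes toward 0, and black marks are the fitted ratio ± SE; A930009A15Rik overlaps Lgr5 itself.

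Oxtr, which the label names beside Lgr5, was higher in Lgr5-positive cells by less. It stood at 67.3, 110, 178 and 109 CPM in Lgr5-positive cells and 59.1, 87.7, 121 and 70.4 CPM in Lgr5-negative cells, a fitted log2 ratio of 0.43 (SE 0.064, adjusted p = 0.00196) with all 4 pairs in the same direction. Because the marker was proposed with these data in view, this value is a description. Of the 18 genes tested for oxytocin and calcium signalling, 2 rose and none fell, where 3.48% of all genes rose. One of the 2 was Oxtr itself, named with these data in view. The only other was Itpr3, a calcium release channel of the endoplasmic reticulum (log2 ratio 0.36). Krt14 was close in both states, with 3383, 3291, 3132 and 3886 CPM in Lgr5-positive cells and 3146, 3157, 2713 and 3940 CPM in Lgr5-negative cells. Trp63, a transcription factor that basal cells require, had a log2 ratio of -0.01 (adjusted p = 0.971).

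Part of the contractile genes were lower in Lgr5-positive cells. Of 22 contractile genes tested besides those of the gate, 11 fell and 1 rose, against 4.04% lower and 3.48% higher among all genes tested, and the median log2 ratio of the list was -0.13 against -0.0022 over all genes. Actg2, a smooth muscle actin, stood at 209, 420, 332 and 194 CPM in Lgr5-positive cells and 271, 573, 423 and 266 CPM in Lgr5-negative cells (log2 ratio -0.43, SE 0.038, adjusted p = 7.91e-05). Each of the 4 pairs was lower in the positive cells. Ckb, the brain-type creatine kinase, stood at 36.8, 46.9, 29.7 and 26.7 CPM against 73.4, 112, 88.5 and 35.6 CPM (log2 ratio -1.04, SE 0.133, adjusted p = 0.000815).

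Myocd, myocardin, the coactivator that turns on smooth muscle genes, was scarce, at 0.40, 1.84, 0.12 and 0.65 CPM in Lgr5-positive cells and 1.74, 4.60, 1.12 and 2.06 CPM in Lgr5-negative cells (log2 ratio -1.67, adjusted p = 0.00314). Kcnmb1, a subunit of a calcium-activated potassium channel, had a log2 ratio of -0.46, and Myl9, a myosin regulatory light chain, of -0.25. Smtn, smoothelin, was the gene of the list that rose (0.22), and it did not pass without the WT vehicle, WT giredestrant or Y541S vehicle library. Flna, Cald1, Myl6 and Csrp1 had log2 ratios between -0.15 and -0.13 and did not pass without the Y541S vehicle or the WT giredestrant library. Without Y541S vehicle Pdlim3 and Csrp2 failed as well, so that 5 of the 11 kept their calls (Actg2, Ckb, Myocd, Kcnmb1 and Myl9). Without TMM factors Flna, Cald1 and Pdlim3 did not pass. Acta2, a gene of the gate, is given as a description only: 5923, 7306, 5418 and 6977 CPM in Lgr5-positive cells and 7129, 8119, 6543 and 7616 CPM in Lgr5-negative cells.

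Among basement membrane and hemidesmosome genes the direction was divided, with 6 of 25 lower and 4 higher, against 4.04% and 3.48% of all genes. The lower ones were 3 collagen chains, 2 laminin chains and the nidogen Nid1. Col4a1, the main network-forming collagen chain of basement membranes, stood at 443, 381, 278 and 226 CPM in Lgr5-positive cells and 750, 688, 490 and 296 CPM in Lgr5-negative cells (log2 ratio -0.72, SE 0.063, adjusted p = 7.91e-05). Its partner Col4a2 had a log2 ratio of -0.53 and the laminin chain Lama1 of -0.72 (adjusted p = 3.27e-05), while Col7a1, of anchoring fibrils, had -0.32, Lamc1 -0.25 and Nid1 -0.24. The higher ones were Col17a1 (0.26), Itgb4 (0.22) and Dst (0.20), all parts of the hemidesmosome, which anchors keratin filaments to the basement membrane, and Hspg2 or perlecan (0.23). Col17a1 and Hspg2 did not pass without the Y541S vehicle library, Hspg2, Dst and Itgb4 without the WT vehicle library, and Itgb4 without the Y541S giredestrant library. Nid1 lost its call without any 1 of the 4 libraries.

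**Figure D3:**
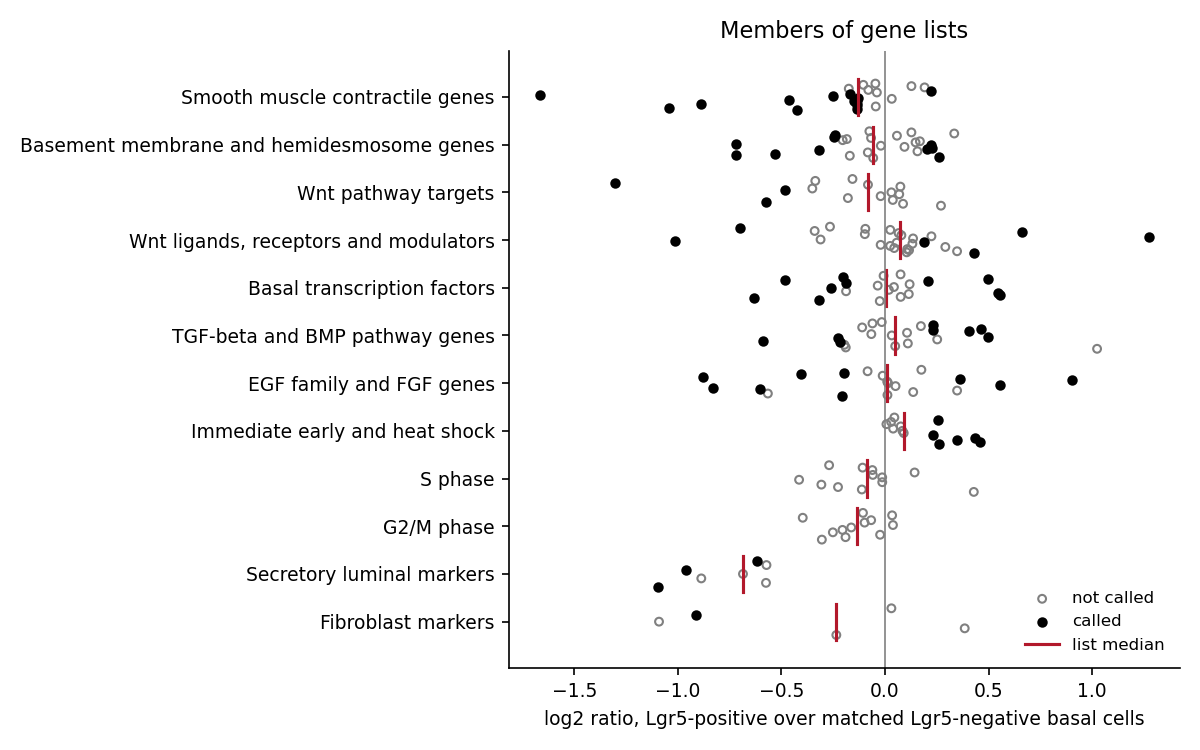
Log2 ratio of Lgr5-positive over matched Lgr5-negative basal cells (x axis) for every tested member of 12 gene lists (y axis); filled points passed an adjusted p of 0.05, open points did not, and red bars are list medians. Contractile genes lie mostly left of 0, and basement membrane and hemidesmosome genes on both sides. No gene of the S phase and G2/M lists was called, where 7.52% of all genes were.

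Among Wnt target genes none was called higher in Lgr5-positive cells, where 3.48% of all genes were. Of 15 targets tested 3 fell, where 4.04% of all genes did: Ccnd1, cyclin D1 (log2 ratio -0.58, adjusted p = 0.00166), Nkd2, a feedback inhibitor (-0.48), and Tnfrsf19 (-1.30). Nkd2 did not pass without the WT giredestrant library, and Tnfrsf19 without the WT vehicle or the Y541S vehicle library. Axin2, the most used reporter of Wnt signalling, had a log2 ratio of 0.09 (adjusted p = 0.811), and Lef1 of -0.18 (adjusted p = 0.818). The R-spondin receptors related to Lgr5 were close in both states, with log2 ratios of 0.02 for Lgr4 (adjusted p = 0.885) and -0.02 for Lgr6 (adjusted p = 0.886).

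Among the 26 ligands, receptors and modulators of Wnt tested, 4 rose and 2 fell, against 3.48% and 4.04% of all genes. Wnt11, a ligand of the non-canonical branch, stood at 28, 41.9, 48.8 and 44.1 CPM in Lgr5-positive cells and 15.1, 29.1, 21.2 and 32.8 CPM in Lgr5-negative cells (log2 ratio 0.66, SE 0.106, adjusted p = 0.00316). Dkk3, a secreted relative of the Dickkopf inhibitors, had 0.43, and Ror1, a Wnt co-receptor, 0.19, which did not pass without the WT giredestrant or the Y541S vehicle library. The 2 that fell were Wnt6, at 5.34, 16, 25.1 and 5.69 CPM against 13.2, 22.9, 39.0 and 8.75 CPM (log2 ratio -0.70, adjusted p = 0.00197), and Ror2, the paralog of Ror1 (-1.01, adjusted p = 0.00197). Ror1 and Ror2 thus had opposite signs.

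Growth factor and transcription factor genes changed in both directions. Of 19 EGF and FGF family genes tested, 3 rose and 6 fell, against 3.48% and 4.04% of all genes. Fgf2, Ereg, Dusp6 and Spry2 lost their calls without the Y541S vehicle library, and Erbb4 with doublets removed or luminal RNA left out. Nrg1, a neuregulin ligand of ERBB receptors, stood at 769, 978, 525 and 705 CPM in Lgr5-positive cells and 1525, 1714, 1225 and 963 CPM in Lgr5-negative cells (log2 ratio -0.88, SE 0.087, adjusted p = 0.000166). Nrg1 was lower in the positive cells of each library. Fgfr3, an FGF receptor, stood at 20.7, 10.8, 12.8 and 21.5 CPM against 7.62, 3.77, 9.31 and 13.6 CPM (log2 ratio 0.90, SE 0.151, adjusted p = 0.0042). The EGF receptor ligands Hbegf and Ereg had log2 ratios of 0.36 and -0.83, and Etv5, a transcription factor downstream of FGF signalling, had -0.63 (adjusted p = 0.00012).

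Of 21 TGF-beta and BMP pathway genes 5 rose and 3 fell, against 3.48% and 4.04% of all genes. Smad7, Tgfbr1, Inhba and Ltbp1 lost their calls without the Y541S vehicle library, which leaves 4 of the 8. Tgfb1 itself stood at 56.5, 40.6, 58.0 and 86.0 CPM in Lgr5-positive cells and 39.3, 30.6, 38.1 and 63.5 CPM in Lgr5-negative cells (log2 ratio 0.46, SE 0.053, adjusted p = 0.000374). Ltbp2, a matrix relative of the latent TGF-beta binding proteins, had 0.50, the inhibitory Smad6 0.40, and Id1 and Id3, common targets of BMP signalling that block other transcription factors, had 0.56 and 0.55. Of 13 immediate early and heat shock genes, 6 rose and none fell, where 3.48% of all genes rose, among them Dusp1 (0.46), Fos (0.43), Egr1 (0.35) and Junb (0.25). Atf3 and Fosb, the other two, lost their calls with doublets removed, with luminal RNA left out and without the Y541S vehicle library. These genes also respond to tissue dissociation, and whether the 2 states differed in that was not tested. Of 12 S phase and 12 G2/M genes tested, none was called, where 7.52% of all genes were. The list medians were -0.08 and -0.13.

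The lowest genes relative to matched cells were mostly scarce ones. Lrfn5, a neuronal adhesion protein, stood at 10.5, 7.94, 7.37 and 3.93 CPM in Lgr5-positive cells and 25.9, 35.1, 43.1 and 15.7 CPM in Lgr5-negative cells (log2 ratio -2.03, SE 0.142, adjusted p = 2.25e-05). It was found in 3.83%, 3.77%, 4.50% and 1.64% of Lgr5-positive cells and 7.87%, 13.3%, 16% and 4.54% of Lgr5-negative cells, a small subset in either state. The non-coding A230065H16Rik had -2.02, Spock3, a secreted proteoglycan, -1.61, Spsb4, an adaptor of ubiquitin ligases, -1.44, Lamp5, a lysosomal membrane protein of neurons, -1.75, and Il1rapl2, a relative of the interleukin 1 receptor accessory protein, -2.12, a call lost without the Y541S vehicle library. Gabrg3, a GABA receptor subunit (-1.80), Klrb1a (-1.77) and Glb1l3 (-1.68) were below 11 CPM in both states, and Glb1l3 did not pass without the WT giredestrant or the Y541S vehicle library.

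Markers of other cells moved with this contrast and are given beside it. Summed over 6 fibroblast markers, Lgr5-positive cells held 311, 165, 207 and 75.9 CPM and Lgr5-negative cells 482, 307, 314 and 188 CPM, and of the 5 markers tested 1 was called, Dcn, which encodes the matrix proteoglycan decorin (log2 ratio -0.91). Dcn made up most of these sums, at 299, 157, 197 and 68.0 CPM against 471, 300, 307 and 174 CPM. It kept its call with stromal RNA left out, but Dcn was among the genes that this setting used to choose cells. Lum was at 0 in the positive sums of Y541S giredestrant and WT vehicle. Over 7 secretory luminal markers the sums were 77.8, 261, 41.7 and 84.7 CPM against 213, 264, 77.0 and 132 CPM, and Kit, Aldh1a3 and Wfdc18 were called lower. Over 6 immune markers they were 147, 58.6, 76.9 and 71.6 CPM against 174, 46.4, 198 and 89.7 CPM, with Cd3e at 0 in all 4 positive sums, Ptprc at 0 in that of WT giredestrant, and none of the 3 tested called. Over 5 endothelial markers they were between 3.99 and 20 CPM against 1.98 and 16.6 CPM, and over 7 pericyte markers between 11.4 and 49.2 CPM against 9.19 and 46.0 CPM. Hormone-sensing markers lay between 20.1 and 29.9 CPM against 22.7 and 32.3 CPM, luminal keratins between 413 and 559 CPM against 394 and 637 CPM, hair follicle and keratinocyte markers between 23.8 and 34.0 CPM against 24.7 and 42.3 CPM, and Schwann cell markers between 1.92 and 3.02 CPM against 1.76 and 2.06 CPM. Krt19 of the luminal keratins (-0.41) and Cd34 of the hair follicle markers (-0.64) were called lower. Krt19 turned to 0.0064 with doublets removed and 0.024 with luminal RNA left out, and Cd34 lost its call with DESeq2, with at least 2 Lgr5 UMIs, with stromal RNA left out and without the WT giredestrant or the Y541S vehicle library. How far RNA of such cells took part in the contrast was not tested beyond the settings that follow.

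Basal cells whose fibroblast or immune RNA reached a limit of 5 UMIs per 10000 were left out and the rest matched again. Cells with less of such RNA stayed in. In this setting, added after these sums were seen, 689 genes were called, and 653 of these were among the 1101. Sfrp1, Tspan8, Slpi, Frmpd4, Xkr4, Oxtr, Actg2, Ckb, Col4a1, Lama1, Wnt6, Wnt11, Nrg1, Fgfr3, Tgfb1 and Lrfn5 kept their calls there, whereas Gli2, Pcdh11x, Nkd2, Nid1, Itgb4, Csrp2, Csrp1, Myl6, Flna and Cald1 were among those that did not pass. Fcgbp, a mucus-associated protein among the 12 lowest genes with a log2 ratio of -1.37, had a ratio of 0.02 when basal cells past a limit on luminal RNA were left out. Kit, Aldh1a3 and Wfdc18 also lost their calls in that setting.

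Several of these genes already differed between cells with no Lgr5 UMI and cells with 1. In all basal cells of the Y541S vehicle library, Slpi stood at 955 CPM in cells with no Lgr5 UMI, 2640 CPM with 1, 2416 CPM with 2 to 4, 2586 CPM with 5 to 9 and 1932 CPM with 10 or more. Col4a1 in the same classes stood at 666, 395, 371, 371 and 410 CPM. In the WT vehicle library Oxtr stood at 70.8, 109, 113, 103 and 113 CPM over the same classes. Slpi kept climbing with Lgr5 in the WT giredestrant library, at 425, 857, 940, 1077 and 1366 CPM. Acta2, by contrast, was lower in each library with 10 or more UMIs than with 1, for example 6005 against 7522 CPM in the WT vehicle library. These classes differ in depth and are given without a test.

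**Figure D4:**
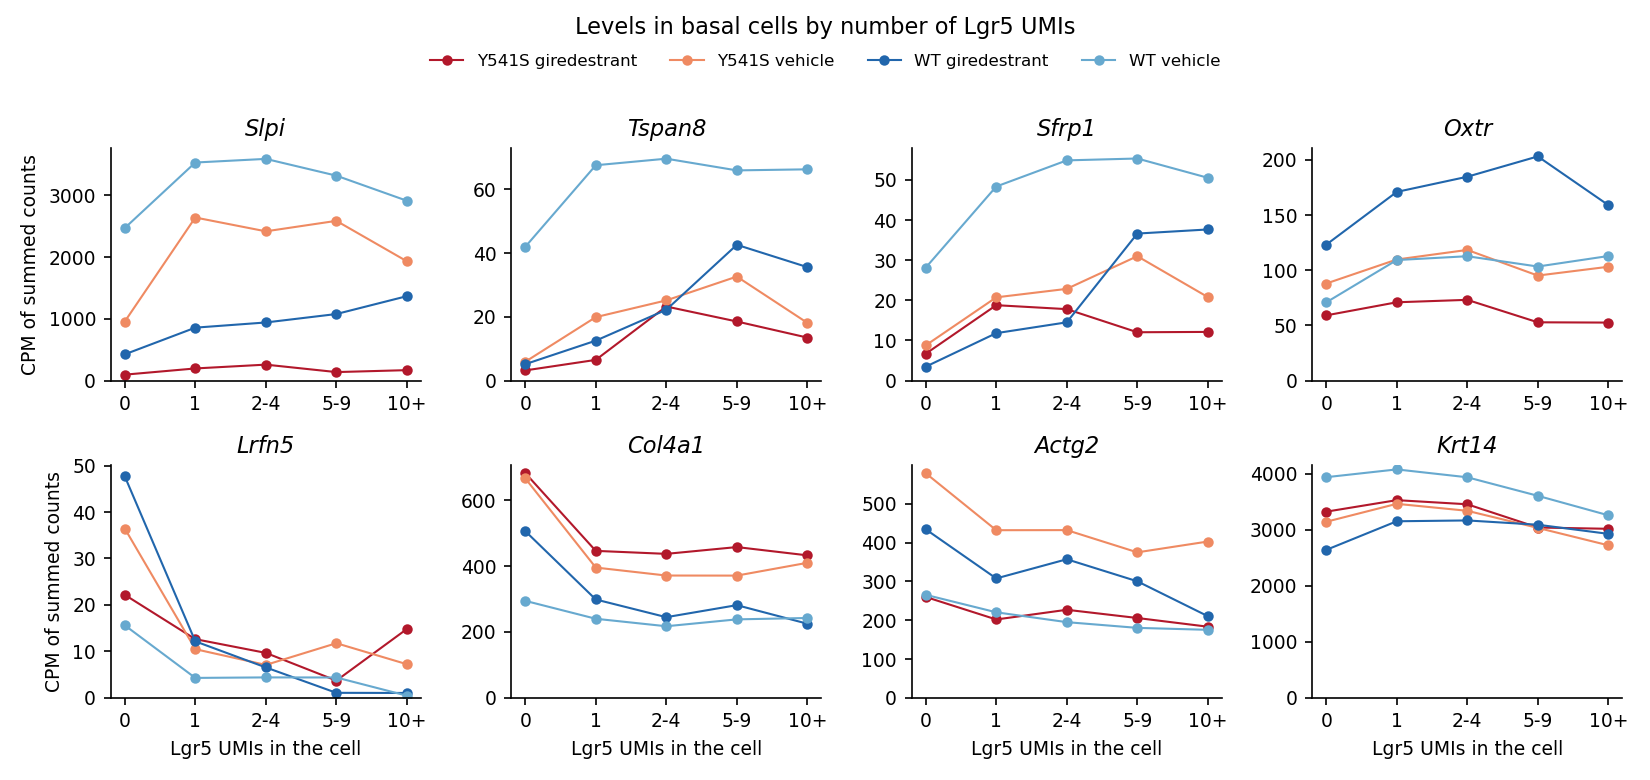
CPM of summed counts (y axis) of 8 genes in basal cells grouped by their number of Lgr5 UMIs (x axis), 1 line per library. Slpi and Oxtr step up and Col4a1 and Lrfn5 step down between 0 and 1 UMI in all 4 libraries, and above 1 UMI the libraries differ in trend; Krt14 lies between 2641 and 4078 CPM throughout.

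Giredestrant was then compared with vehicle within Lgr5-positive cells, 1 library against 1. Values are ratios of summed CPM on the log2 scale, set so that the median gene is at 0, with exact 95% intervals for counting error only, and no test is possible. In Y541S glands 594 of 13893 genes with at least 20 counts lay 2-fold or more higher with giredestrant (4.28%) and 513 lower (3.69%), 7.97% in all, and with TMM factors 546 were higher and 563 lower. In WT glands 831 of 15721 genes were 2-fold or more higher (5.29%) and 1099 lower (6.99%), 12.3% in all. The WT split depends on the scaling too, since without setting the median gene to 0, which moves all ratios by 0.13, it was 1143 higher and 873 lower. Many of these genes also differed in Lgr5-negative cells: of those that could be counted in the matched Lgr5-negative cells, 509 of 965 in Y541S and 914 of 1619 in WT glands were 2-fold different there in the same direction, and 10 and 34 in the opposite direction.

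In Y541S glands the genes furthest above the median gene with giredestrant included milk protein and luminal genes. Csn2, beta-casein, stood at 47.0 CPM with giredestrant (352 UMIs) against 0.08 CPM with vehicle (1 UMI), a relative log2 ratio of 9.10 (6.61 to 14.41), and Csn1s1, alpha-S1-casein, at 56.2 against 0.998 CPM (5.77). Calca, the gene of calcitonin and CGRP, was at 33.8 against 0.25 CPM (7.04), and Mgat4c, a glycosyltransferase gene, at 11.2 CPM against 0, which is at least 5.45 on this scale for a floor of 3 counts. All 4 were far higher in luminal cells of the same giredestrant library: 3308 CPM of Csn2 and 3656 CPM of Csn1s1 in secretory cells, and 5300 CPM of Calca and 1178 CPM of Mgat4c in hormone-sensing cells. They were also high in the matched Lgr5-negative cells, at 96.9 CPM for Csn2 and 37.8 CPM for Calca, and how much of them was free RNA was not tested. A single cell held 119 of the 352 Csn2 UMIs, another 183 of the 421 Csn1s1 UMIs, and likewise 596 of the 635 Fabp4 UMIs and 34 of the 87 Il33 UMIs lay in 1 cell.

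The genes furthest below the median gene with giredestrant in Y541S glands included the protease inhibitor Slpi. Slpi stood at 206 CPM with giredestrant against 2485 CPM with vehicle (-3.64, -3.71 to -3.56), and in matched Lgr5-negative cells at 78.2 against 935 CPM. In hormone-sensing cells Slpi ran the other way, at 562 CPM with giredestrant and 126 CPM with vehicle. Hpse2, a heparanase-related protein, stood at 19.8 against 210 CPM (-3.46, -3.71 to -3.22) and was found in 46 of 991 cells with giredestrant and 394 of 903 with vehicle. Brinp1, a gene of neural differentiation, stood at 3.34 against 61.2 CPM (-4.24), carried by 5 and 93 cells. 9530059O14Rik stood at 0.40 against 9.89 CPM (-4.67), Ogn, a matrix proteoglycan also high in non-epithelial cells, at 0 against 3.82 CPM, and 3110079O15Rik at 0.13 against 7.40 CPM beside 1.65 against 359 CPM in secretory cells. Brinp1 was below 1 CPM in both luminal gates of both libraries.

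Of the lists in Y541S glands, 4 of 10 progesterone and glucocorticoid response genes were 2-fold higher and 1 was lower with giredestrant, against 4.28% and 3.69% of all genes. The higher ones were Fkbp5, Zbtb16, Calca and Wnt4, and the lower one was Tsc22d3. Calca was far higher in hormone-sensing cells, as given above, and Wnt4 is also on the list of hormone-sensing luminal markers. Fkbp5, a chaperone cofactor induced by both hormones, stood at 17.6 against 8.48 CPM and Zbtb16 at 8.68 against 2.83 CPM, beside 232 and 177 CPM in hormone-sensing cells of the giredestrant library. Inhba, an activin subunit, stood at 9.34 against 2 CPM (2.18) and Prrx1, a homeobox transcription factor, at 64.7 against 15.5 CPM (2.02, 1.77 to 2.27). Prrx1 was below 1 CPM in both luminal gates. Ccnd1 stood at 50.8 against 20.5 CPM (1.26), and Actg2 at 209 against 420 CPM (-1.05).

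In WT glands the lowest genes with giredestrant included a well-known target of the estrogen receptor. Greb1, a classical estrogen-induced gene, stood at 1.41 CPM with giredestrant against 30.7 CPM with vehicle (-4.57, -5.49 to -3.79), found in 10 of 481 and 480 of 2405 cells. In matched Lgr5-negative cells it stood at 1.86 against 22.3 CPM, and in hormone-sensing cells at 3.84 against 256 CPM. Of 15 estrogen response genes tested, 3 were 2-fold lower (Greb1, Ccnd1 and Stc2), where 6.99% of all genes were. None was 2-fold higher, where 5.29% of all genes were, and the list median was -0.13. Lingo2, a neuronal adhesion protein with little luminal expression, stood at 12.5 against 147 CPM (-3.69, -3.97 to -3.42) and Aqp3, an aquaporin, at 3.04 against 37.1 CPM (-3.74). Gpx3 at 2.72 against 59.9 CPM and Hp at 0 against 5.30 CPM were higher by far in hormone-sensing cells with vehicle, at 10979 and 1830 CPM, and 810 of the 1843 Gpx3 UMIs with vehicle lay in 1 cell. Slc28a3 was at 0 against 6.02 CPM, with 161 of its 185 UMIs in 1 cell.

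In WT glands several of the genes furthest above the median gene with giredestrant were scarce. Them5, a mitochondrial thioesterase, stood at 61.4 against 10.3 CPM (2.44, 2.24 to 2.64), with 61.1 against 16.7 CPM in matched Lgr5-negative cells and below 1 CPM in both luminal gates. Krt15, a keratin of basal cells, stood at 1039 against 304 CPM (1.64, 1.60 to 1.68), and Wnt6 at 23.0 against 5.98 CPM (1.81). Single cells carried most UMIs of some others, with 22 of 24 Ebf2 UMIs, 28 of 34 Ifitm1 UMIs and 30 of 45 Ifit3 UMIs in 1 cell each. Spock1 stood at 3.59 against 0.29 CPM in 20 and 9 cells. Of 13 immediate early and heat shock genes 3 were 2-fold higher and none lower, where 5.29% of all genes were higher: Fos at 1982 against 827 CPM, Egr1 at 1193 against 466 CPM and Jun at 926 against 373 CPM. Fos was also higher with giredestrant in WT hormone-sensing cells, at 2004 against 1104 CPM, and whether dissociation differed between the libraries was not tested. Of 11 interferon response genes 3 were 2-fold higher and none lower, where 5.29% and 6.99% of all genes were. The higher ones were Ifit3, Ifit1 at 16.9 against 5.72 CPM and Stat2 at 56.3 against 21.0 CPM. With giredestrant the 156 Ifit1 UMIs lay in 25 of 481 cells, and 1 cell held 47 of them.

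Some growth factor genes were lower with giredestrant in WT glands. Of 19 EGF and FGF family genes 6 were 2-fold lower (Hbegf, Tgfa, Ereg, Epgn, Nrg2 and Fgf2) and none higher, where 6.99% of all genes were lower. Areg, an EGF receptor ligand that the gate used and the list leaves out, stood at 5.65 against 6.86 CPM. Hbegf stood at 50 CPM with giredestrant against 160 CPM with vehicle (-1.81, -1.95 to -1.67), Tgfa at 84.7 against 196 CPM (-1.34), and Ereg at 3.59 against 12.2 CPM (-1.90). Matched Lgr5-negative cells had 43.1 against 121 CPM of Hbegf. In Y541S glands none of the 19 was lower and 1 was higher with giredestrant, where 3.69% and 4.28% of all genes were. The higher one was Erbb4, an ERBB receptor that secretory cells express at 825 CPM.

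Several genes that marked Lgr5-positive cells also differed with treatment. With giredestrant against vehicle in WT glands, relative log2 ratios in Lgr5-positive cells were -2.39 for Frmpd4, -1.93 for Slpi, -1.59 for Tspan8, -1.48 for Sfrp1 and 0.59 for Oxtr. In Y541S glands they were -3.04 for Frmpd4, -3.64 for Slpi, -0.73 for Tspan8, -0.50 for Sfrp1 and -0.75 for Oxtr. Xkr4 had -0.02 (-0.09 to 0.06) in WT and -0.81 in Y541S glands. Frmpd4, Slpi, Tspan8 and Sfrp1 were thus lower with the drug in both genotypes, Xkr4 in Y541S glands, and Oxtr was higher in WT and lower in Y541S glands. The matched Lgr5-negative cells differed in the same directions, with 5.21 CPM of Frmpd4 with giredestrant against 73.2 CPM with vehicle in WT glands, 4.97 against 41.3 CPM of Tspan8 and 3.72 against 27.7 CPM of Sfrp1. Lgr5 itself, given as a description, stood within these cells at 474 CPM with giredestrant against 318 CPM with vehicle in Y541S glands, and at 245 against 388 CPM in WT glands. These cells were chosen for holding an Lgr5 UMI, so this level also depends on depth. Their median depth was 6556 against 12298 UMIs in Y541S glands and 17236 against 11204 UMIs in WT glands. The part of depth in these differences was not tested. Over all basal cells, not chosen for Lgr5, it stood at 155 against 104 CPM in Y541S glands and 120 against 218 CPM in WT glands.

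**Figure D5:**
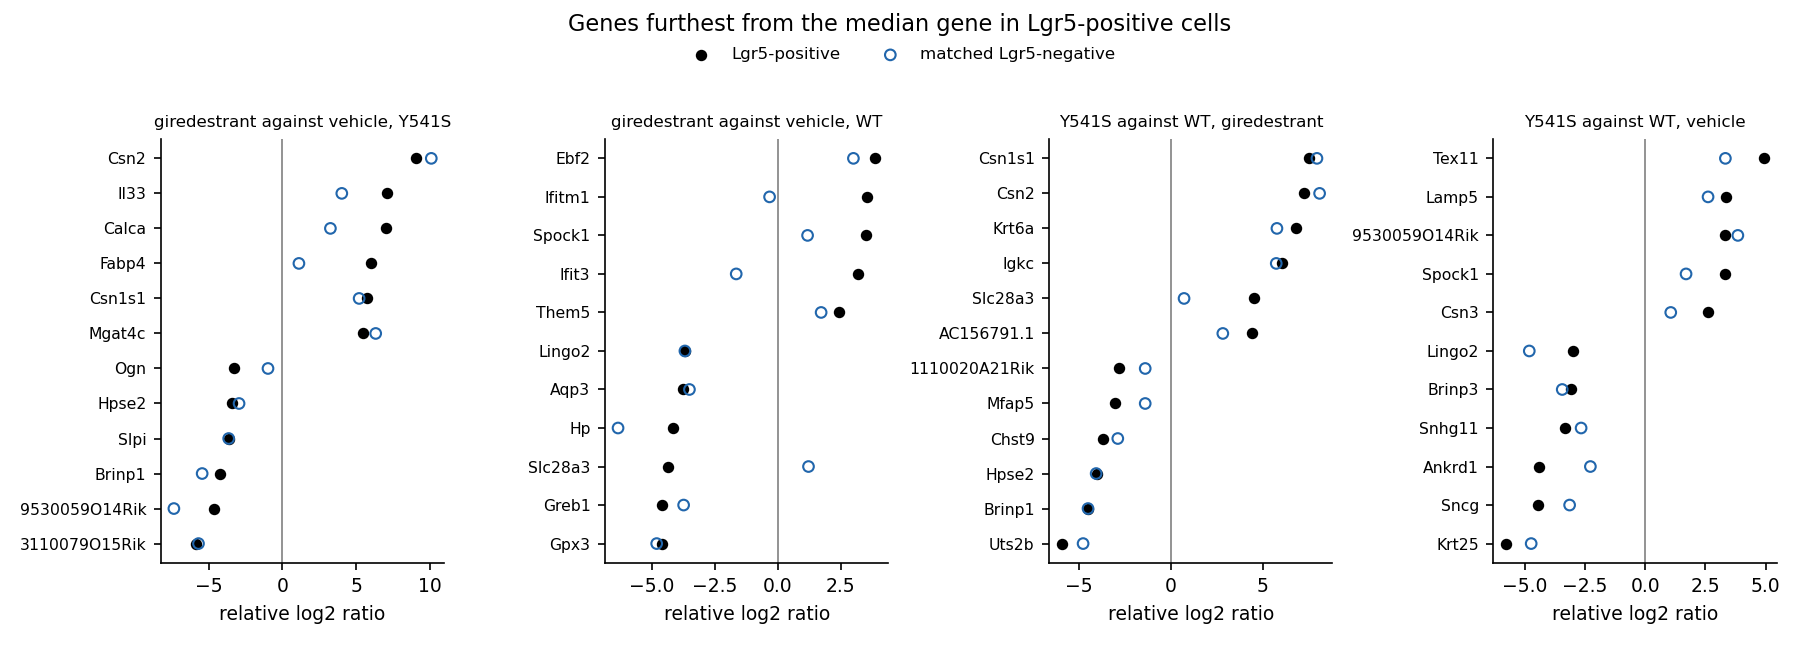
Relative log2 ratio (x axis, median gene at 0) in Lgr5-positive cells (filled) and matched Lgr5-negative cells (open) for genes among the 6 highest and 6 lowest (y axis) of each comparison, 1 library against 1, with genes at 0 in 1 library placed at a floor of 3 counts. Slpi and Hpse2 (giredestrant against vehicle in Y541S) and Lingo2 and Aqp3 (the same in WT) lie close together in both states, and Fabp4, Ifitm1 and, in WT, Slc28a3, carried largely by 1 cell, do not.

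Y541S was compared with WT within each treatment, and these comparisons share their libraries with those above. With giredestrant, 916 of 13822 genes were 2-fold or more higher in Y541S (6.63%) and 929 lower (6.72%), 13.3% in all. With vehicle 387 of 15692 were higher (2.47%) and 747 lower (4.76%), 7.23% in all. Of the countable genes, 980 of 1662 with giredestrant and 448 of 898 with vehicle were 2-fold different in the same direction in matched Lgr5-negative cells. With giredestrant Y541S cells held 20.4 CPM of Greb1 against 1.41 CPM in WT cells (3.95, 3.13 to 4.89), 165 against 50 CPM of Hbegf (1.82), and 50.8 against 10.8 CPM of Ccnd1 (2.34). Of 19 EGF and FGF family genes 8 were 2-fold higher and none lower, against 6.63% and 6.72% of all genes.

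Csn2 and Csn1s1 were at 47.0 and 56.2 CPM in Y541S cells against 0 in WT cells with giredestrant, at least 7.27 and 7.52 on the log2 scale, beside 3308 and 3656 CPM in Y541S secretory cells. Krt6a, a stress keratin, stood at 23.0 against 0.22 CPM beside 706 CPM in Y541S hormone-sensing cells, and Igkc, an immunoglobulin chain of plasma cells, at 13.3 against 0.22 CPM spread over 74 cells. Slc28a3 was at 7.07 CPM against 0, beside 348 CPM in Y541S and 510 CPM in WT secretory cells. AC156791.1 was at 6.41 CPM against 0, with 23 of its 48 UMIs in 1 cell. Lower in Y541S were Hpse2 at 19.8 against 347 CPM (-4.04, -4.29 to -3.80), Brinp1 at 3.34 against 83.5 CPM (-4.55), Chst9, a sulfotransferase, at 1.47 against 20.9 CPM (-3.73), and Uts2b, a urotensin peptide, at 0.13 against 8.69 CPM (-5.93, -11.25 to -3.41). Oxtr stood at 67.3 against 181 CPM (-1.34), Fos at 637 against 1982 CPM (-1.54) and Xkr4 at 56.3 against 209 CPM (-1.80). Mfap5 and 1110020A21Rik were at 0 in Y541S cells, against 3.59 and 3.04 CPM in WT cells.

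With vehicle, Y541S cells held less of several genes that marked the Lgr5-positive state. Frmpd4 stood at 49.9 against 168 CPM (-1.77), Tspan8 at 23.6 against 67.8 CPM (-1.54), Sfrp1 at 23.1 against 52.2 CPM (-1.19) and Xkr4 at 96.0 against 194 CPM (-1.02), and all 4 were also lower in matched Lgr5-negative Y541S cells. Brinp3 stood at 30.8 against 255 CPM (-3.06, -3.22 to -2.91), Lingo2 at 18.7 against 147 CPM (-2.99), Sncg, gamma-synuclein, at 0.75 against 16.1 CPM (-4.44), Snhg11 at 0.67 against 6.67 CPM (-3.34), and Ankrd1, a stretch-responsive target of YAP, at 0.58 against 12.3 CPM (-4.42). Krt25, a hair follicle keratin, was at 0.08 against 4.46 CPM, with 107 of 137 WT UMIs in 1 cell. Higher in Y541S were Lamp5 at 2.66 against 0.26 CPM (3.34), Spock1 at 2.91 against 0.29 CPM, Tex11 at 2 against 0.07 CPM, and 9530059O14Rik at 9.89 against 0.98 CPM.

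Csn3, kappa-casein, stood at 43.7 against 7.15 CPM with vehicle, with 270 of 525 Y541S UMIs in 1 cell and a relative log2 ratio that turned to -0.42 with doublets removed, and the nonagouti gene a at 6964 against 1763 CPM (1.97). Of 12 G2/M genes 4 were 2-fold higher in Y541S than in WT cells with vehicle (Plk1, Ccnb1, Ccnb2 and Ube2c), where 2.47% of all genes were, and 4 with giredestrant (Top2a, Cenpf, Mki67 and Ube2c), where 6.63% were. None was lower, and Ube2c was the 1 gene in both. Ccnb1 stood at 12.3 against 5.98 CPM with vehicle and Top2a at 58.1 against 19.0 CPM with giredestrant, and in the WT giredestrant library 1 cell held 84 of 156 Cenpf UMIs. Axin2 stood at 6.90 against 3.48 CPM with vehicle (0.97), and Actg2 at 420 against 198 CPM (1.07). Matched Lgr5-negative cells had 573 against 266 CPM of Actg2.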

How the data were processed

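The authors deposited raw UMI counts per gene and barcode for 4 libraries, made with the 10x Genomics v3.1 3' kit per the labels' protocols and with Cell Ranger 6.0.1 per the file headers, on GRCm38 per the submitters' processing notes. How intronic reads and strand were counted is not given in the sources used here. The libraries hold 70781982 UMIs (Y541S giredestrant), 132660456 (Y541S vehicle), 84215237 (WT giredestrant) and 98223195 (WT vehicle) over 52636 genes.

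Raw counts of the cells chosen were summed per library and Lgr5 state (8 sums, genes of 80 or more counts) and tested with edgeR 4.0.16 in R 4.3.3, with TMM factors and the library as a block, which pairs each positive sum with the negative sum of the same library. Matching took the deepest positive cells first and the nearest unused negative cell. DESeq2 1.42.0 was an alternative, and doublets were scored with Scrublet in scanpy 1.11.5 and kept in the main values. Other alternatives changed filters, matching, gates and scaling. The pipeline was tested on simulated counts. Intervals are 95% Clopper-Pearson or exact conditional binomial ones from scipy 1.17.1 and cover counting error only. A gate for hormone-sensing or secretory cells needed 10 of its marker UMIs per 10000 and fewer than 5 each of the contractile and keratin sums, and secretory cells also fewer than 5 of the luminal sum above. Comparisons between treatments or genotypes have 1 library per group and no test.

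Named genes are the 12 highest and 12 lowest called with 1 sign in all 4 libraries, called members of 29 gene lists (377 genes), and, between libraries, the 6 highest and 6 lowest by the interval bound nearest to 0 and list members past 2-fold. A few genes that this rule names are not reported here. Members and lists were chosen with earlier results of these data known.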

Additional observations from a re-analysis of the deposited data

Results flagged for a closer look

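The share of basal cells with Lgr5 at 5000 UMIs differed with giredestrant in opposite directions, by 4.11 percentage points in Y541S and by -7.48 points in WT glands. Of 112 results compared in this way, 11 genes also lay 2-fold or more on opposite sides of the median gene in Lgr5-positive cells. Relative log2 ratios of giredestrant over vehicle in Y541S and then in WT glands were 3.54 and -3.69 for Lingo2, 1.26 and -1.76 for Ccnd1, -1.62 and 1.81 for Wnt6, and 2.02 and -1.03 for Prrx1. They were 2.74 and -2.66 for Rgs4, 3.26 and -4.54 for Krt6a, 1.19 and -2.43 for Krt16, and 1.11 and -1.25 for Kit. For Fkbp5 they were 1.01 and -1.18, for Hpse2 -3.46 and 1.23, and for 9530059O14Rik -4.67 and 1.87. Some of these ratios rest on few UMIs. In the WT giredestrant library there were 2 of Krt6a, 17 of Rgs4 and 11 of Kit, with 9 of the Kit UMIs in 1 cell. In the Y541S giredestrant library there were 3 of 9530059O14Rik. With 1 library per group none of these differences was tested.

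Of 116 genes named in the contrast of Lgr5-positive with Lgr5-negative cells, 6 had 1 library far from the other 3, where chance flags about 1 in 20 groups. Lamp5 had a log2 ratio of -2.40 in the WT vehicle library, with the others between -1.52 and -1.35. Wnt6 had -1.30 in the Y541S giredestrant library, with the others between -0.64 and -0.54. In the WT giredestrant library Col17a1 had 0.10, Hspg2 0.075 and Dusp1 0.61, with the others between 0.29 and 0.32, 0.26 and 0.28, and 0.41 and 0.42. Nfkb1 had -0.031 in the Y541S giredestrant library, with the others between 0.29 and 0.31.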

How the results depend on the processing

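The 1101 genes called between Lgr5-positive and matched Lgr5-negative cells became 577 with DESeq2 (574 of them shared, 2556 genes without an adjusted p), 1656 with no filter on low counts, 689 with stromal RNA left out, and 0 with no replicate block for the library, where 270 genes had an unadjusted p under 0.05. Leaving out 1 library gave 455 to 1098 calls, the lowest without Y541S vehicle, then 563 without WT vehicle and 578 without WT giredestrant. Thinning to 3000 UMIs gave Lgr5 shares of 20.7%, 16.1%, 23.8% and 29.2% in the Y541S giredestrant, Y541S vehicle, WT giredestrant and WT vehicle libraries, and no thinning gave 28.8%, 32.0%, 51.1% and 52.2%. A contractile minimum of 40 gave 20.1% in Y541S vehicle, and removing doublets 27.9% in Y541S giredestrant. With 50 or more counts, 570 and 1182 genes were 2-fold different with giredestrant in Y541S and WT glands, and 1125 and 566 between genotypes with giredestrant and vehicle. Of genes called lower in Lgr5-positive cells, Wfdc18 and Krt19 had positive log2 ratios with doublets removed (0.052 and 0.0064), and Fcgbp, Wfdc18 and Krt19 with luminal RNA left out (0.021, 0.15 and 0.024). Relative log2 ratios that changed sign were, for giredestrant against vehicle in Y541S glands, Csn3 at 0.73 with doublets removed and 1.04 with luminal RNA left out and Wfdc18 at 0.40 with luminal RNA left out. With doublets removed Csn3 was at -0.42 between genotypes with vehicle and Ly6a at -0.18 with giredestrant. Wfdc18 and Csn3 were among the genes that the luminal RNA setting used to choose cells. The causes were not tested.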
